A study of Mus musculus with 4 samples.

Results

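Transcripts of 39 genes of mitochondrial and peroxisomal fatty acid oxidation were compared in the gastrocnemius, a calf muscle, of non-transgenic and MCK-PPARb mice aged 6 weeks. The non-transgenic mice are wild-type littermates. The MCK-PPARb mice carry a muscle-specific transgene for PPARbeta, a nuclear receptor encoded by Ppard. MCK stands for the muscle creatine kinase promoter, which is active in striated muscle fibres. Each group has 2 arrays, labelled as biological replicates, and neither strain nor sex is stated in the labels. The genes were taken from a fixed list, and each was represented by the probe set of highest mean signal among those annotated to that gene alone. Of the 39 genes, 38 had such a probe set, out of 12393 genes in all. The exception was Cpt1b, the muscle form of the outer carnitine palmitoyltransferase, whose probe set is annotated to further genes as well. Of the 38 genes, 35 exceeded the median probe set signal of 444 units and were tested. Ehhadh, Acot1 and Acot2 lay below it.

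Long-chain fatty acids enter mitochondria as carnitine esters and are then shortened in a cycle of dehydrogenation, hydration, a further dehydrogenation and thiolysis. The acyl-CoA dehydrogenases pass their electrons to the electron transfer flavoprotein and from there to ubiquinone of the respiratory chain. Unsaturated fatty acids need auxiliary isomerases and reductases. Peroxisomes shorten very long and branched chains with a separate set of enzymes and hand the products to mitochondria. PPARbeta is a lipid-activated receptor known in skeletal muscle for its control of genes of fatty acid use.

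Values are signal intensities of whole-muscle RNA on Affymetrix arrays, on a linear scale with 1 value per probe set and array. Median signals were 431 to 513, and log2 signals correlated at r = 0.946 and 0.955 within the groups and at 0.924 to 0.946 between them across kept probe sets (probe sets are not replicates). Non-transgenic replicate 1 stood apart among bright probe sets, with 4.20% of its signal in its 10 brightest ones, against 2.36% to 2.78% on the other arrays. All 13 fast fibre markers passed the filter, among them Ckm, muscle creatine kinase, at 118251 to 258580 units. Ppard read 2169 and 2825 in non-transgenic muscle against 126049 and 98796.5 in MCK-PPARb muscle, so its direction matches the labels. Differences are MCK-PPARb minus non-transgenic on the log2 scale, given with the SE of the limma fit (n = 2 per group). A gene is said to have risen or fallen at an adjusted p under 0.05 over all 11313 kept probe sets. Nothing in the labels beyond the word biological says how the replicates were taken, so p-values measure only the spread between these arrays, which may be technical.

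Among the 35 kept genes of fatty acid oxidation, 1 rose, 0 fell and 34 did not reach an adjusted p under 0.05. Of all 6841 kept genes, 0.731% were called, 0.409% higher and 0.322% lower, and of all kept probe sets 0.601%, so 1 call in 35 genes is a small count to set against that share. The gene that rose was Etfdh. An unadjusted p under 0.05 in limma was reached by 8 genes, or 22.9%, against 10.9% of all kept genes. Of these, 5 were higher, in a background of 5.31%, and were listed under the mitochondrial steps: Etfdh, Hadha, Acadl, Cpt2 and Eci2, whose product is found in peroxisomes as well. The other 3 were lower, in a background of 5.57%, and were listed as peroxisomal: Scp2, Crot and Abcd2. The difference between both sets of genes was not tested. The genes were chosen with earlier results of these data known, so shares set against all kept genes are a description and not a test. The groups did not overlap for 20 of the 35 genes, or 57.1%, against 42.9% of all kept genes; 14 of them were higher (22.2% of all kept genes) and 6 lower (20.8%).

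The median difference of the 35 kept genes was 0.12, beside 0.011 for all kept genes, and 25 of the 35, or 71.4%, had a positive difference, beside 51.2%. Centring the arrays on their medians lowers every difference by 0.11, and 57.1% of the 35 were then positive. Their median was then 0.015, beside -0.095 for all kept genes, so both medians moved together. In the plot of differences by gene, Etfdh stands apart on the right and Scp2, Crot and Abcd2 on the left.

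**Figure D1:**
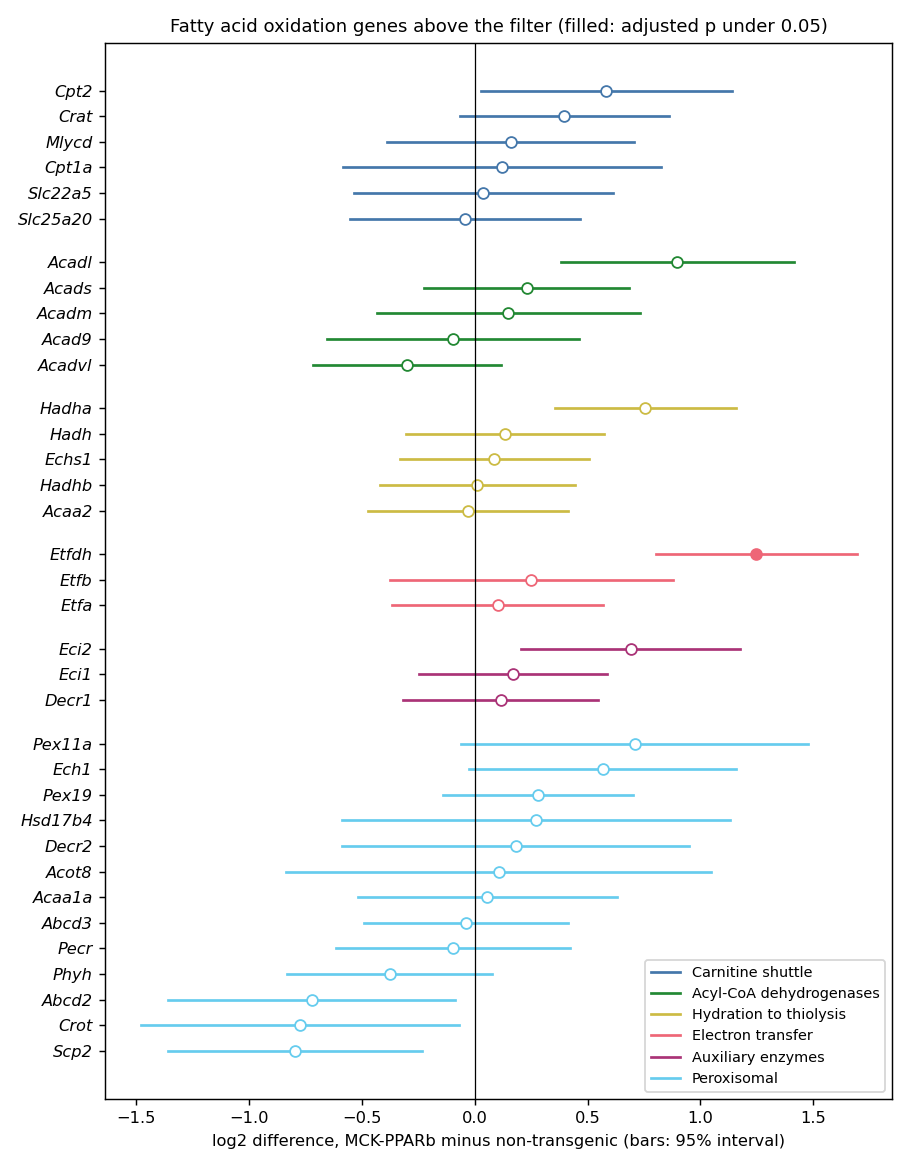
Log2 difference between MCK-PPARb and non-transgenic muscle (x axis) for the 35 kept genes, grouped by step; points are fitted differences, bars their 95% intervals (n = 2 arrays per group), and a filled point marks an adjusted p under 0.05. Etfdh at 1.25 is the single filled point. The peroxisomal genes span the widest range, from -0.80 to 0.71, but they are 13 genes against 3 to 6 in the other steps.

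Electron transfer out of the mitochondrial cycle gave the one call. Etfdh encodes the membrane oxidoreductase that takes electrons from the electron transfer flavoprotein and reduces ubiquinone. It read 3318.5 and 3894 in non-transgenic muscle against 8608 and 8465 in MCK-PPARb muscle. Both MCK-PPARb arrays were well above both non-transgenic ones, and the arrays of each group lay close together. The rise was 2.37-fold (log2 1.25 ± 0.19, 95% interval 0.80 to 1.69, adjusted p = 0.0431 with limma). The call was lost without MCK-PPARb replicate 1 (1.24, adjusted p = 0.179), without MCK-PPARb replicate 2 (1.26, adjusted p = 0.187), with median centring (1.14, adjusted p = 0.0608), without the intensity trend (adjusted p = 0.198) and with quantile normalization plus non-transgenic replicate 1 left out, a setting added after seeing the data (1.16, adjusted p = 0.0634), while the difference stayed between 1.13 and 1.36 over all 15 alternatives.

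The flavoprotein that feeds Etfdh is made of an alpha subunit, Etfa, and a beta subunit, Etfb. Etfa read 8147 and 10466 in non-transgenic muscle against 10408.5 and 9444.5 in MCK-PPARb muscle, a difference of 0.10 ± 0.20 (95% interval -0.36 to 0.57). Etfb read 26553 and 18304 in non-transgenic muscle against 21402.5 and 32187 in MCK-PPARb muscle, at 0.25 ± 0.27 (95% interval -0.38 to 0.88). The groups overlapped for both subunits, and neither passed. The sign of Etfa turned with median centring and that of Etfb with non-transgenic replicate 2 left out (-0.017). The difference of Etfdh exceeded that of Etfa by 1.15 and that of Etfb by 0.996, with an exact two-sided permutation p of 0.333 for each, the smallest that 2 arrays against 2 allow. These were among 5 pairs of genes compared after their values were seen, with an adjusted p of 0.333 for every pair.

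The upstream sequence of Etfdh is shown because it is the gene that was called. It ends at the base before the annotated start of the gene, lies on the minus strand at chr3:79628768-79629017 (GRCm38.p6, from RefSeq), and is printed 5′ to 3′ with no letters in capitals, since it holds no AGGTCA on either strand.
Etfdh: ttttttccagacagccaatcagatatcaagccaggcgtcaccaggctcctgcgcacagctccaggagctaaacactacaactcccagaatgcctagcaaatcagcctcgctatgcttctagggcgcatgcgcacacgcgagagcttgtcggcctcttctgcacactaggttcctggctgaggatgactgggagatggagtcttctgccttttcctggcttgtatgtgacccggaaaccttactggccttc

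The acyl-CoA dehydrogenases, which open each turn of the cycle, had unlike differences. Acadl encodes the long-chain enzyme. It read 10774 and 15381 in non-transgenic muscle against 22753 and 25297 in MCK-PPARb muscle. The groups did not overlap, and the non-transgenic arrays differed more from each other than the MCK-PPARb arrays did. A dim probe set of Acadl below the filter, at 6.6 to 42.3 units, had the opposite sign (-1.22). The difference of the brighter probe set was 0.90 ± 0.22, or 1.86-fold. It had an unadjusted p of 0.00416 in limma and missed the threshold over all genes (adjusted p = 0.175). It passed without non-transgenic replicate 2 (1.15, adjusted p = 0.0267) and not without replicate 1 of that group (0.64, adjusted p = 0.181).

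Acadvl, the very-long-chain dehydrogenase of the inner membrane, read 11907 and 12023 in non-transgenic muscle against 9145 and 10340.5 in MCK-PPARb muscle. Its arrays did not overlap either, with the MCK-PPARb arrays the lower ones, and the difference was -0.30 ± 0.18 (adjusted p = 0.611). Acadm, the medium-chain enzyme, was at 14224 and 23061 in non-transgenic muscle against 20608 and 19587 in MCK-PPARb muscle. Both MCK-PPARb values fell between the non-transgenic ones. Its difference was 0.15 ± 0.25, and -0.20 without non-transgenic replicate 1. Acads, the short-chain enzyme, had a difference of 0.23 ± 0.19 with groups that did not overlap. Acad9, which also serves in the assembly of respiratory complex I, was at -0.095 ± 0.24. The difference of Acadl exceeded that of Acadvl by 1.20 and that of Acadm by 0.75, in pairs compared after their values were seen. The exact permutation p of 0.333 for each is the smallest that 2 arrays against 2 allow, so that test could not call them. The median of the 5 dehydrogenases was 0.15, and -0.16 without non-transgenic replicate 1.

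The mitochondrial trifunctional protein carries out the last steps on long chains and is built from an alpha subunit, Hadha, and a beta subunit, Hadhb. Hadha read 12515 and 12213 in non-transgenic muscle against 20314 and 21460.0 in MCK-PPARb muscle. The gap between the groups was many times the spread within them. The difference was 0.76 ± 0.17, or 1.69-fold, with an unadjusted p of 0.00274 in limma and an adjusted p of 0.143, so it did not pass. Hadhb read 16490 and 19032 in non-transgenic muscle against 16743 and 19066 in MCK-PPARb muscle. Its groups covered nearly the same range, and the difference was 0.012 ± 0.18 (95% interval -0.42 to 0.44). A further kept probe set of Hadhb, whose suffix marks possible cross-hybridisation, was at 0.28 ± 0.42. The differences of Hadha and Hadhb lay 0.74 apart, in a pair compared after its values were seen. The exact permutation p of 0.333 is the smallest that 2 arrays against 2 allow, so that test could not call it. The sign of Hadhb turned with median centring, at -0.094, while Hadha stayed at 0.65.

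**Figure D2:**
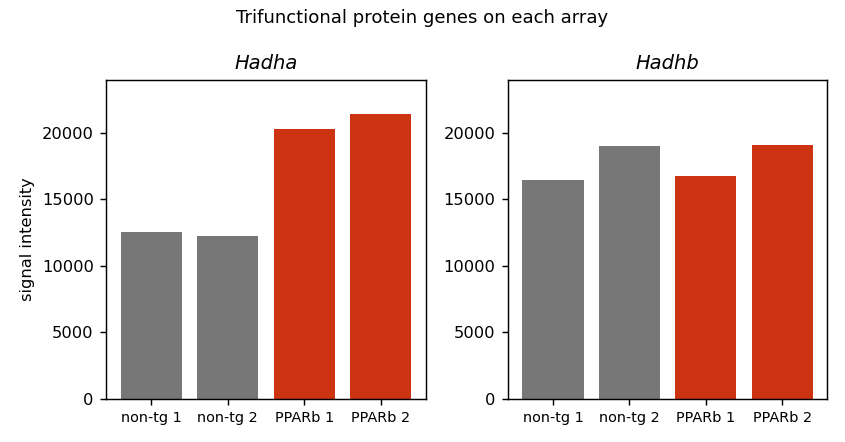
Signal intensity (y axis, from 0) of Hadha and Hadhb on each of the 4 arrays; grey bars are non-transgenic and red bars MCK-PPARb arrays, 1 bar per array and no error bars. Hadha is at 20314 and 21460.0 on the MCK-PPARb arrays against 12515 and 12213, while Hadhb is at 16743 and 19066 against 16490 and 19032.

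Both genes start head to head, on opposite strands of chromosome 5, with 273 bases between their annotated starts. The sequence before the start of Hadhb is shown because it lies wholly between both starts and so stands before Hadha as well. It is the plus strand at chr5:30155003-30155252 (GRCm38.p6, from RefSeq), printed 5′ to 3′ in the direction of Hadhb, and it holds no AGGTCA on either strand.
Hadhb: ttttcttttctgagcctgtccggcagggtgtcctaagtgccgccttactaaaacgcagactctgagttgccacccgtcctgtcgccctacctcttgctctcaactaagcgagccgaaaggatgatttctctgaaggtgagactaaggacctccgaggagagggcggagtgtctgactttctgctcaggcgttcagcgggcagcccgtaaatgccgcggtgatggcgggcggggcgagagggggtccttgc
Of the 31 listed genes with a promoter window, 6 had a gene starting head to head within 1000 bases, and Hadha and Hadhb were the only such neighbours with kept signals.

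None of the other 3 listed enzymes of the matrix cycle passed. Hadh, the short-chain hydroxyacyl-CoA dehydrogenase, read 40106.5 and 33524 in non-transgenic muscle against 39423 and 41058 in MCK-PPARb muscle, with overlapping groups and a difference of 0.13 ± 0.19. Its other kept probe sets were at 0.31 ± 0.18 and 1.69 ± 0.77, the latter from signals of 793 and 129.5 against 1283 and 834. Echs1, the short-chain enoyl-CoA hydratase, was at 0.086 ± 0.18. Its groups did not overlap, at 6731 and 7338 against 7382 and 7540, but its sign turned with median centring (-0.020). Acaa2, the mitochondrial thiolase, was at -0.031 ± 0.19, with kept probe sets on either side of 0, at -0.21 and 0.12.

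The carnitine shuttle brings long acyl chains into the matrix. No member rose or fell, and the median of its 6 kept genes was 0.14. Cpt2, the inner transferase that releases acyl-CoA in the matrix, read 2970.5 and 4018 in non-transgenic muscle against 5868 and 4559 in MCK-PPARb muscle. No overlap was seen, but the gap between the groups was smaller than the spread within either. Its difference was 0.58 ± 0.24 (unadjusted p = 0.0423 in limma, adjusted p = 0.449). A dimmer probe set of Cpt2 below the filter was at -0.024. Crat, carnitine acetyltransferase, which buffers acetyl-CoA, read 6031 and 6470 against 9223 and 7333.5 and was at 0.40 ± 0.20 without passing. A further kept probe set of Crat was at 0.013 ± 0.29.

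Cpt1a, the liver form of the outer transferase, read 1064 and 1412 in non-transgenic muscle against 1616 and 1100.0 in MCK-PPARb muscle, so the groups overlapped (0.12 ± 0.30). Its sign turned without non-transgenic replicate 1 (-0.083) and without MCK-PPARb replicate 1 (-0.16). Dim probe sets of Cpt1a below the filter were at -0.025 and -0.83. Slc25a20, the carnitine-acylcarnitine carrier of the inner membrane, had differences of -0.043 ± 0.22 and 0.013 ± 0.26 in its kept probe sets. Slc22a5, the carnitine transporter of the cell surface, was at 0.039 ± 0.24, with signals of 1435 and 1235 against 1348 and 1387. Mlycd degrades malonyl-CoA, the inhibitor of the outer transferase, and was at 0.16 ± 0.23. The groups overlapped for all of Slc25a20, Slc22a5 and Mlycd.

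The auxiliary enzymes handle double bonds of unsaturated chains. None of the 3 passed. Their MCK-PPARb arrays lay above the non-transgenic ones, as they did for 22.2% of all kept genes. Eci2, an enoyl-CoA isomerase found in mitochondria and peroxisomes, read 4006 and 3115 in non-transgenic muscle against 5731 and 5675 in MCK-PPARb muscle. The MCK-PPARb arrays were almost equal, and the difference was 0.69 ± 0.21, or 1.61-fold (unadjusted p = 0.0116 in limma, adjusted p = 0.278). Eci1, the mitochondrial isomerase, read 9331 and 10508 against 10882 and 11390.0, at 0.17 ± 0.18. Decr1, the mitochondrial dienoyl-CoA reductase, read 4442 and 4353 against 4818 and 4714, at 0.12 ± 0.18. Another kept probe set of Decr1 had the opposite sign (-0.43 ± 0.22), from 3209 and 3449 against 2194 and 2770.

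The acyl-CoA thioesterases Acot1, of the cytosol, and Acot2, of mitochondria, split acyl-CoA into free fatty acid and coenzyme A and are closely related. Both lay below the filter and were not tested. Acot1 read 206 and 51.5 in non-transgenic muscle against 174 and 167 in MCK-PPARb muscle. Acot2 read 556 and 167 against 370 and 275. Both MCK-PPARb values fell between the non-transgenic ones for each gene, and a further probe set annotated to both genes was not used.

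The peroxisomal genes had differences of both signs, and no member rose or fell. Of the 13 kept, 7 had a positive and 6 a negative difference, and the median was 0.057. The groups did not overlap for 8 of them, or 61.5%, against 42.9% of all kept genes, with 4 higher (22.2% of all kept genes) and 4 lower (20.8%). In the plot of signals by array, 3 peroxisomal genes in the lowest row are lower on both MCK-PPARb arrays. Scp2 encodes sterol carrier protein X, a thiolase for branched chains, and the smaller sterol carrier protein. It read 3658 and 4553 in non-transgenic muscle against 2736.5 and 2020.0 in MCK-PPARb muscle. The groups did not overlap, and the difference was -0.80 ± 0.24, or 1.74-fold lower (unadjusted p = 0.0121 in limma, adjusted p = 0.279). Another kept probe set of Scp2 was at -0.37 ± 0.38, with overlapping groups. The 2 dim ones below the filter were at -0.74 and -0.81.

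**Figure D3:**
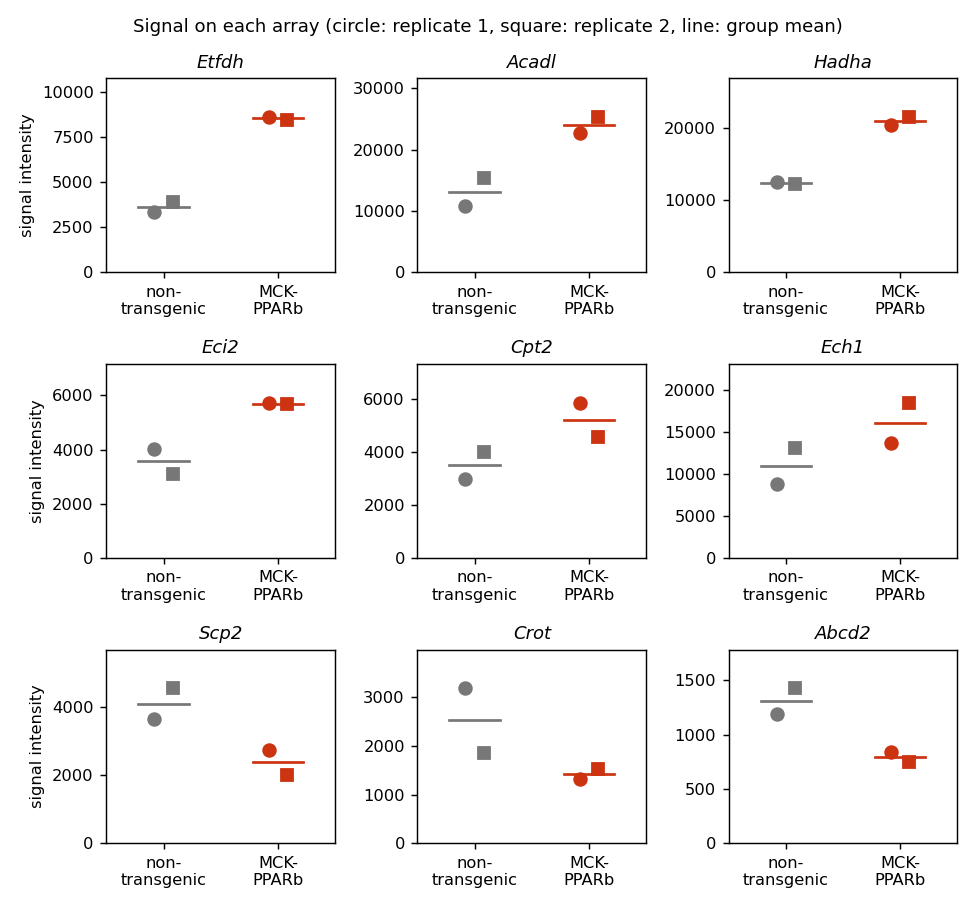
Signal intensity (y axes, each from 0) of 9 genes in non-transgenic (grey) and MCK-PPARb (red) muscle; circles are replicate 1, squares replicate 2 and lines group means. The upper rows hold genes whose MCK-PPARb arrays are the higher ones, with Etfdh at 8608 and 8465 against 3318.5 and 3894, and the lowest row holds Scp2, Crot and Abcd2, whose MCK-PPARb arrays are the lower ones.

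Crot, the peroxisomal carnitine octanoyltransferase, which prepares shortened chains for export to mitochondria, read 3186 and 1866 in non-transgenic muscle against 1331 and 1529 in MCK-PPARb muscle. The non-transgenic arrays were the higher ones, with replicate 1 far above the other 3 arrays. The difference was -0.77 ± 0.30 (unadjusted p = 0.0352 in limma, adjusted p = 0.416), and -0.39 without non-transgenic replicate 1. Abcd2, a transporter of very long acyl chains into peroxisomes, read 1195.5 and 1428 in non-transgenic muscle against 840 and 746 in MCK-PPARb muscle. Its difference was -0.72 ± 0.27 (unadjusted p = 0.0310 in limma, adjusted p = 0.395). Abcd3, the related transporter that is the more widely used marker of the peroxisomal membrane, was at -0.039 ± 0.19, with signals of 4778 and 4335 against 4700 and 4172. Phyh, which starts the alpha-oxidation of phytanic acid, read 6005 and 7296 against 5158 and 5039 and was at -0.38 ± 0.19 (adjusted p = 0.558).

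Other peroxisomal genes were higher on the MCK-PPARb arrays. Ech1, a dienoyl-CoA isomerase of peroxisomes and mitochondria, read 8809 and 13046 in non-transgenic muscle against 13649.6 and 18486 in MCK-PPARb muscle. Groups came close without overlapping, and the difference was 0.57 ± 0.25 (unadjusted p = 0.0576 in limma), or 0.28 without non-transgenic replicate 1. Pex11a, a factor of peroxisome division, read 1096 and 1014 against 2326.5 and 1275 and was at 0.71 ± 0.33. Its size rests on MCK-PPARb replicate 1, without which it was 0.27, and its other kept probe set was at 0.30 ± 0.25. Pex19, the import receptor for peroxisomal membrane proteins, read 5754.5 and 6114.5 against 7002 and 7397.5, at 0.28 ± 0.18. Another kept probe set of Pex19 was at 0.074 ± 0.23 with overlapping groups, at 4420 and 3151 against 4238 and 3641.

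Ehhadh, the peroxisomal bifunctional enzyme of straight chains, lay below the filter and was not tested. Its signals of 260 and 264 in non-transgenic muscle against 404 and 420 in MCK-PPARb muscle did not overlap. The remaining peroxisomal genes had small differences in the probe sets that represent them. Hsd17b4, the bifunctional enzyme of branched and very long chains, was at 0.27 ± 0.37, and -0.29 without non-transgenic replicate 1. Decr2, the peroxisomal dienoyl-CoA reductase, was at 0.18 ± 0.33, and Acot8, a peroxisomal thioesterase, at 0.11 ± 0.40. Acaa1a, the peroxisomal thiolase, was at 0.057 ± 0.24, with a dimmer kept probe set at 0.41 ± 0.47. Further probe sets annotated to both Acaa1a and Acaa1b were not used. Pecr, an enoyl-CoA reductase used in chain elongation, was at -0.097 ± 0.22, with a dim probe set below the filter at 0.49. Among the representing probe sets of these genes, that of Decr2 alone had groups that did not overlap.

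The upstream sequence of Scp2 is shown because Scp2 had the smallest p among the peroxisomal genes and holds AGGTCA, the sequence that PPARs and related receptors recognise in repeats. It is on the minus strand at chr4:108118548-108118797 (GRCm38.p6, from RefSeq), printed 5′ to 3′ up to the base before the annotated start, with AGGTCA in capitals.
Scp2: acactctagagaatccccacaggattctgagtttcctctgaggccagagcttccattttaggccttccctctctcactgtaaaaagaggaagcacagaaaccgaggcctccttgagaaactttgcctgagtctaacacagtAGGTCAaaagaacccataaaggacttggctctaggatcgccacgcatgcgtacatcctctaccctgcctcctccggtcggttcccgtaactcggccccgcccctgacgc
A match is a description of letters and not a binding site. Windows of 250 bases before to 50 after the annotated start were searched on both strands for 31 of the listed genes. AGGTCA was found for 6 of them, or 19.4%, against 16.3% of all 32851 windows: Cpt1a, Acadvl, Acadm, Echs1, Phyh and Scp2. None of the 31 held AGGTCANAGGTCA, which contains AGGTCA as a repeat and is found in 0.0396% of all windows, nor AGGNCANAGGNCA (0.381%), nor TCAAGGTCA (0.423%), which contains AGGTCA as well.

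A wider circle of genes was described from lists of other mitochondrial acyl-CoA genes and other peroxisomal genes. Where in the cell the product of each listed gene lies was not checked. Of 24 genes listed as other mitochondrial ones, which include enzymes of branched-chain breakdown, 21 were kept, 0 rose and 0 fell. The unadjusted p of 1 of these genes was under 0.05 in limma. The median of the 21 was -0.19, with 14 negative and 7 positive differences. The 4 of smallest p were Acat1, a mitochondrial thiolase of ketone body and isoleucine use (7867 and 10366 against 15235.5 and 15433, 0.76 ± 0.20), Pcca, a subunit of propionyl-CoA carboxylase (-0.52 ± 0.24), the thioesterase gene Them4 (-0.89 ± 0.41), and Nudt19, a hydrolase of coenzyme A (-0.40 ± 0.19). Acat1 alone had an unadjusted p under 0.05, and all 4 had an adjusted p of 0.209 or more.

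Of 38 other peroxisomal genes, 18 were kept, 0 rose and 0 fell, and the unadjusted p of 2 genes was under 0.05 in limma. Their median was 0.25, with 14 positive and 4 negative differences, and 0.15 with median centring. Cat, the catalase that removes the hydrogen peroxide made by peroxisomal oxidation, read 2154.5 and 1826 in non-transgenic muscle against 4072 and 4342 in MCK-PPARb muscle. The groups lay far apart, yet Cat did not pass (1.08 ± 0.21, adjusted p = 0.0939). Pex6, an ATPase of the peroxisomal import machinery, read 2164 and 2068 against 3558 and 3001, at 0.63 ± 0.21. Lonp2, the peroxisomal protease, was at 0.54 ± 0.26 and Pex26, the membrane anchor of the import ATPases, at 0.87 ± 0.42. In the plot by step, the medians of the listed steps lie inside the middle 50% of all kept genes, apart from electron transfer at 0.25, which lies at its upper edge.

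**Figure D4:**
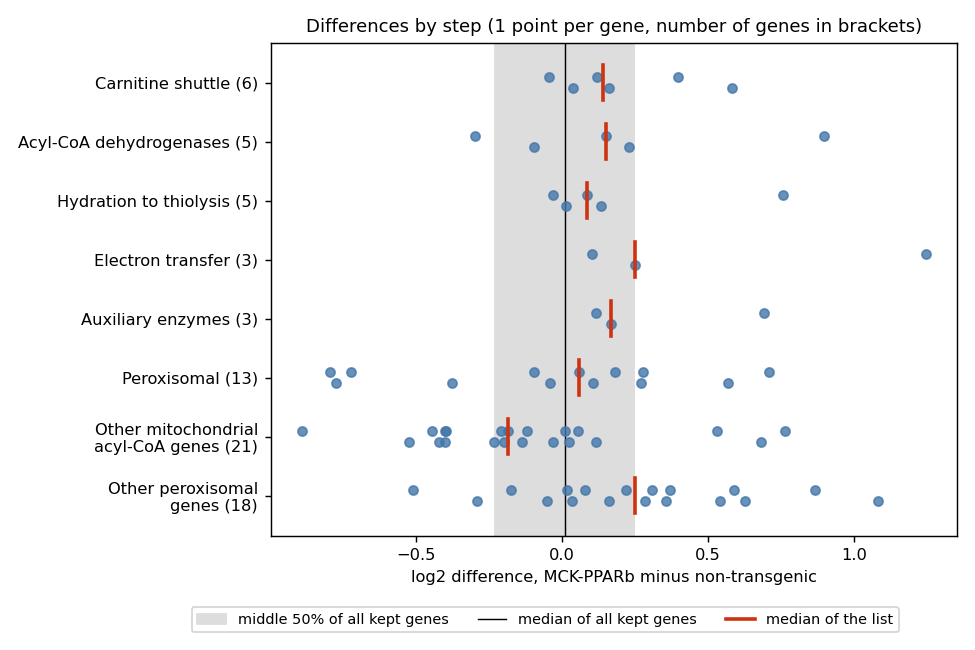
Log2 differences (x axis) of the kept genes of each step and of the lists of other mitochondrial and other peroxisomal genes, 1 point per gene, with the median of each list in red; the grey band is the middle 50% of all 6841 kept genes, from -0.23 to 0.25, and the black line their median. Each mitochondrial step apart from the carnitine shuttle has 1 gene far to the right of its other members, and the peroxisomal genes spread to both sides.

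Markers of fibre type and of other cells were read beside these differences. In whole-muscle RNA, fewer cells of a type and less RNA per cell cannot be told apart. Of 10 slow fibre markers, 9 were higher in MCK-PPARb muscle, and Tpm3 was lower (-0.16). The summed signal of all 10 was 103871 and 155212 in non-transgenic muscle against 206609 and 240579 in MCK-PPARb muscle. All 10 were kept, 0 were called, and the median was 0.89. Without overlap between the groups, 8 were higher, against 22.2% of all kept genes. An unadjusted p under 0.05 in limma was reached by 7, all higher, against 5.31% of all kept genes. Of 13 fast fibre markers, 1 was higher, and the sums of 2822890 and 1515560 against 1787650 and 1577660 overlapped. The highest sum is that of non-transgenic replicate 1. Slow fibres are known to be rich in enzymes of fatty acid oxidation, and their part in the differences was not tested.

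Of the 8 measured white adipocyte markers, 4 were higher, with sums of 17153 and 21215 in non-transgenic muscle against 21799 and 23036 in MCK-PPARb muscle, sums in which Fabp4 and Plin4 weigh most. Of the 5 kept, 4 were higher without overlap between the groups, against 22.2% of all kept genes, and the median was 0.76. The defining marker Adipoq, the adiponectin gene, read 1151 and 1648 on the non-transgenic against 2567 and 3076 on the MCK-PPARb arrays (1.03, unadjusted p = 0.00520 in limma, adjusted p = 0.194). Retn, the resistin gene, read 805 and 652 against 1565 and 1387 (1.02, unadjusted p = 0.00661 in limma, adjusted p = 0.219). Fabp4, the other kept marker of note by its brightness, went the other way, at 7277 and 11715 against 8234 and 7521 (-0.23). Cidec, Lep and Pparg lay below the filter and were lower too, at -0.47, -0.80 and -0.72. Of these, Lep had groups that did not overlap, at 131 and 86.8 against 55.7 and 67.2. Of the 7 measured brown adipocyte markers, 6 were higher, with overlapping sums of 84536.5 and 85722 against 79134 and 87205, which are made up mostly of Cox8b and Cox7a1, genes that muscle expresses too. The defining marker Ucp1 had dim signals that did not reach the filter, 59.1 and 28.9 on the non-transgenic against 391 and 447 on the MCK-PPARb arrays, and so had Cidea, at 183 and 116.5 against 593 and 737. Of the 5 measured Schwann cell markers, 4 were higher, with sums of 18155 and 20041 against 30343 and 34209. The 3 kept ones were higher without overlap between the groups, against 22.2% of all kept genes. Their median was 0.67, and 0 were called. Mbp was at 0.96 (unadjusted p = 0.00095 in limma, adjusted p = 0.0928) and Pmp22 at 0.67 (unadjusted p = 0.0127 in limma, adjusted p = 0.285). Mag, below the filter, was lower (-0.13). Endothelial markers were higher for 4 of 7, with sums of 12936 and 13355 against 12133 and 12784. Macrophage markers were higher for 5 of 7, with sums of 11223 and 9548 against 11397.5 and 10756. Fibroblast markers were higher for 1 of 6, with sums of 302480 and 258367 against 291070 and 240405. Red blood cell markers were higher for 2 of 3 measured, with sums of 1300.1 and 978 against 1059.6 and 1325. No listed marker with a probe set was at 0. The part of any of these cells in the differences was not tested.

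**Figure D5:**
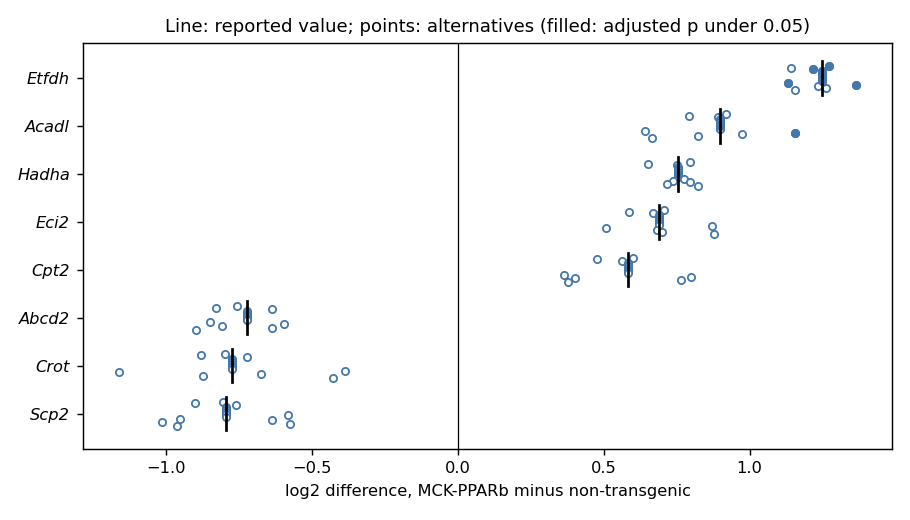
Log2 difference (x axis) of the 8 genes with an unadjusted p under 0.05, as reported (black line) and under each alternative of normalization, filter, prior, block, probe set choice or left-out array (points, spread vertically for legibility); filled points have an adjusted p under 0.05. No point of these genes crosses 0; the filled ones belong to Etfdh (10 of 15), Acadl (2) and Hadha (1).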

How the data were processed

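RNA of gastrocnemius muscle was hybridised to 4 arrays. Each deposited value is the signal intensity of a probe set on an array, not on a log scale, made with MAS5 and GCOS per the submitters' processing notes (versions not stated there). Trimmed means of the deposited intensities (2% left out at each end) agreed at 1499.1 to 1499.6, so the arrays share 1 scale. Of 22690 probe sets, 64 were controls and left out. Of the rest, 20380 carried 1 gene symbol, 691 several and 1555 none here, with symbols brought up to date by gene number (assembly GRCm38.p6). Signals were put on the log2 scale without pseudocount. The test was that of limma 3.58.1 under R 4.3.3 (lmFit, eBayes with an intensity trend, two-sided, Benjamini-Hochberg adjustment) over the 11313 probe sets whose mean log2 signal exceeded the median. The fit was tested on simulated data. Signals on every array are given for the listed genes of fatty acid oxidation with an unadjusted p under 0.05 or a difference of at least 0.5. They are also given for further genes as examples. The genes, lists, tests and alternatives were chosen with earlier results of these data known. The number of arrays limits the precision.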

Additional observations from a re-analysis of the deposited data

How the results depend on the processing

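No listed gene fell under any alternative. The count of listed genes that rose was 1 as reported, 0 with median centring and without the intensity trend, 0 to 2 when each array was left out in turn, and 0 with quantile normalization and non-transgenic replicate 1 left out, an alternative chosen after seeing the data. With a replicate block in limma 3 rose, Etfdh (adjusted p = 0.00258), Acadl (0.0239) and Hadha (0.0490). The labels do not say whether the replicate numbers pair the arrays. Deviations of same-numbered arrays correlated positively, at r = 0.276 over kept probe sets and 0.0889 over the listed genes. Whether same-numbered arrays share an effect was not tested. The number of called probe sets was 68 as reported, 116 with median centring, 21 without the trend, 377 with the block, 150 at an adjusted p under 0.1 and 36 to 159 when an array was left out.

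The median of the 35 kept genes was 0.12 as reported, 0.13 with quantile normalization, 0.015 with median centring, 0.11 with a pseudocount of 138.7, 0.13 without the filter, 0.14 with a filter at the 75th percentile, 0.15 when all kept probe sets of a gene were averaged, 0.10 to 0.14 with an array left out, and 0.13 with quantile normalization and non-transgenic replicate 1 left out. Medians by step moved by more than 1 SD between replicates as follows. With median centring, hydration to thiolysis was at -0.020, auxiliary enzymes at 0.063, peroxisomal genes at -0.049, other peroxisomal genes at 0.15 and all kept genes at -0.095. With the filter at the 75th percentile, the carnitine shuttle was at 0.28, peroxisomal genes at -0.039 and all kept genes at -0.022; without a filter all kept genes were at 0.046. Without the suffixed probe sets other peroxisomal genes were at 0.36. With an array left out, at least 1 value of each list named next moved that far, while others did not. Full ranges are given. The carnitine shuttle ran from 0.076 to 0.31, dehydrogenases from -0.16 to 0.22, electron transfer from 0.17 to 0.55 and auxiliary enzymes from 0.13 to 0.25. Peroxisomal genes ran from -0.13 to 0.047, other mitochondrial genes from -0.33 to -0.073 and other peroxisomal genes from 0.13 to 0.26. With quantile normalization and non-transgenic replicate 1 left out, dehydrogenases were at -0.13, electron transfer at 0.57, other mitochondrial genes at -0.36 and all kept genes at -0.012. The cause of these shifts was not tested.

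Of 515 differences of single genes under alternatives, 473 kept sign and call. The sign turned in 34, over 16 genes, none of which passed. With median centring these were Slc22a5 (-0.067), Hadhb (-0.094), Echs1 (-0.020), Etfa (-0.0033) and Acaa1a (-0.049), and with averaged probe sets Decr1 (-0.16). With quantile normalization and non-transgenic replicate 1 left out they were Cpt1a (-0.11), Slc25a20 (0.13), Acadm (-0.13), Hadhb (-0.016), Etfa (-0.013), Hsd17b4 (-0.29) and Abcd3 (0.035). With 1 array left out in turn, differences ran on both sides of 0 for Cpt1a (-0.16 to 0.40), Slc25a20 (-0.23 to 0.14), Slc22a5 (-0.069 to 0.15), Mlycd (-0.13 to 0.45), Acadm (-0.20 to 0.50), Hadhb (-0.091 to 0.12), Acaa2 (-0.13 to 0.066), Etfa (-0.078 to 0.28), Etfb (-0.043 to 0.55), Acaa1a (-0.13 to 0.24), Hsd17b4 (-0.29 to 0.83), Acot8 (-0.33 to 0.54), Abcd3 (-0.13 to 0.047) and Pecr (-0.23 to 0.034). Signals near or below the filter, as for Ehhadh, Acot1, Acot2, Decr2 and Acot8, limit what can be said of those genes.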
